A study of Mus musculus with 3 samples.

Results

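The mouse genes whose symbols begin with Zfp and a number encode zinc finger proteins. Of the 318 such entries in the expression table, 171 (53.8%) averaged 1 RPKM or more across the 3 libraries and are described here, out of 12852 genes in all. RPKM is a read density, scaled to the length of the transcript and the number of reads in the library. The other 147 Zfp genes lay under that mean, while 75.6% of all listed genes reached it. The choice used the mean level over all libraries and the symbol, not the difference between groups. RNA was sequenced from B16F10 cells, a pigmented mouse melanoma line grown in DMEM with serum and antibiotics. The siMed23 group held 2 libraries, from cells in which Med23 had been knocked down with siRNA and which the labels number 1 and 2. The siCtrl group held 1 library, from the same line under the same culture conditions. The labels do not tell separate cultures from repeats of one culture, nor whether the siRNAs differed, so the spread between them may be technical. All results come from 1 cell line and an unreplicated control.

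Most Zfp proteins belong to the C2H2 class, in which each finger folds around a zinc ion held by paired cysteines and histidines and a row of fingers reads a stretch of DNA. Many of them also carry a KRAB domain, which recruits the co-repressor Trim28 and with it histone methylation, and this class is best known for silencing retroelements and for keeping imprinted genes methylated. A small separate class, the Zfp36 family, has CCCH fingers that bind AU-rich elements in mRNA and recruit the Ccr4-Not deadenylase. Med23 is a subunit of Mediator, the large coactivator that bridges DNA-bound factors and RNA polymerase II.

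Med23 itself had 1.65 and 1.61 RPKM in the siMed23 libraries, against 5.23 RPKM in siCtrl (log2 ratio -1.24 ± 0.11 SE, limma adjusted p = 0.00121 by Benjamini-Hochberg, BH). Both knockdown libraries were thus below the control for the targeted gene. All 11 melanocyte markers listed were in the table, with a summed level of 3055 and 2945 RPKM in siMed23 and 7145 RPKM in siCtrl, and 10 of them were called lower. The part of these lower marker levels in the Zfp results was not tested. Of the markers of other cell types, 3 of 8 for fibroblasts summed to 2.87 and 3.21 RPKM in siMed23 and 2.24 RPKM in siCtrl, and 2 of 7 for endothelium summed to 0.159 and 0.125 RPKM in siMed23 and 0.331 RPKM in siCtrl. Of the immune markers, 3 of 9 summed to 11.4 and 11.3 RPKM in siMed23 and 17.7 RPKM in siCtrl, most of it Cd68, and none of the 7 epithelial markers was among the genes analysed here. In bulk RNA, fewer cells expressing a gene and less RNA per cell cannot be told apart. The 3 columns had been given nearly the same distribution before deposit, so they hold no read depth, and a change in total RNA cannot be seen in them.

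Individual Zfp genes differed in both directions between siMed23 and the lone siCtrl library, while the 171 genes as a whole had nearly the same level. The median Zfp gene had 3.31 RPKM in each siMed23 library and 3.41 RPKM in siCtrl. The 171 genes together summed to 919.7 and 894.6 RPKM in siMed23 and 895.8 RPKM in siCtrl, so the control total lay between those of the knockdown libraries. The median log2 ratio, siMed23 over siCtrl on log2(RPKM + 1), was -0.03 for the Zfp genes and 0.01 for all 9722 genes that averaged 1 RPKM or more. The middle 50% of Zfp genes ran between -0.39 and 0.31, against -0.33 and 0.34 for all tested genes, and the median size of a change without its sign was 0.34 in both. The 147 Zfp genes under a mean of 1 RPKM are not part of these values. In 62.6% of them both siMed23 libraries were below siCtrl, and in 19% both were above. Among other genes under that mean the shares were 42.8% and 37.4%.

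The limma test, fitted over all 9722 genes with BH adjustment and a threshold of 0.05, called 34 of the 171 Zfp genes higher after knockdown (19.9%) and 43 lower (25.1%), and 94 did not pass. Among all tested genes 26.3% were called higher and 24.0% lower, 50.3% together. The Zfp genes called lower thus came at close to the background share and those called higher at a smaller share than the background, and the difference from the other genes was not tested. Without adjustment 99 Zfp genes had p under 0.05. The share of all tested genes under that unadjusted limit is not given here, so this count has no background. Both siMed23 libraries lay above siCtrl for 73 Zfp genes and below it for 82, and the control lay between them for 16, beside 46.6% of all tested genes with both above and 44.2% with both below. On RPKM + 1, 12 Zfp genes were at least 1.5-fold higher in both knockdown libraries, with 10.5% of all tested genes past that limit, and 18 were at least 1.5-fold lower, with a background of 9.98%. These counts depended on the added 1, and with 0.1 added in its place they were 20 and 32. With the first siMed23 library alone, leaving out the second, 19 were 1.5-fold higher and 24 lower, and with the second alone 17 were higher and 32 lower. Past 2-fold in both libraries on RPKM + 1 were 0 higher Zfp genes (background 2.57%) and 2 lower ones (background 2.83%), Zfp260 and Zfp146. On RPKM itself, a scale added after the values had been seen, 22 were at least 1.5-fold higher in both libraries (background 14.6%) and 32 lower (background 13.5%). Of these 5 were past 2-fold higher in both libraries (background 4.97%), namely Zfp125, Zfp277, Zfp511, Zfp932 and Zfp945. Another 11 were past 2-fold lower (background 4.76%). Zfp125, Zfp932 and Zfp945 were under 1 RPKM in siCtrl and were kept through their siMed23 values. Among the falls, Zfp12 and Zfp187 were under 1 RPKM in both siMed23 libraries and were kept through the control.

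These calls rest on 1 residual degree of freedom between the siMed23 libraries and take the lone control to vary as they do. When the control was given an SD 3 times that of a knockdown library, no Zfp gene was called by limma in either direction. The smallest BH-adjusted p of a Zfp gene by limma was then 0.108, while 2.01% of all tested genes were called. Without adjustment 9 Zfp genes were higher and 12 lower at p under 0.05, counts given without the share of all tested genes. After a loess correction of the log2 ratios for transcript length and GC content, limma called 43 of 170 Zfp genes higher and 35 lower, with a median of 0.03. Among all genes under the same correction 26.9% were called higher and 24.6% lower, with a median of 0.02. The correction was fitted to each siMed23 library separately, so it also acts on the spread between them, on which the test rests. The smallest BH-adjusted p of a Zfp gene by limma was 0.00121 before it and 7.27e-06 after it. A call kept under this correction is therefore a weak check.

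**Figure D1:**
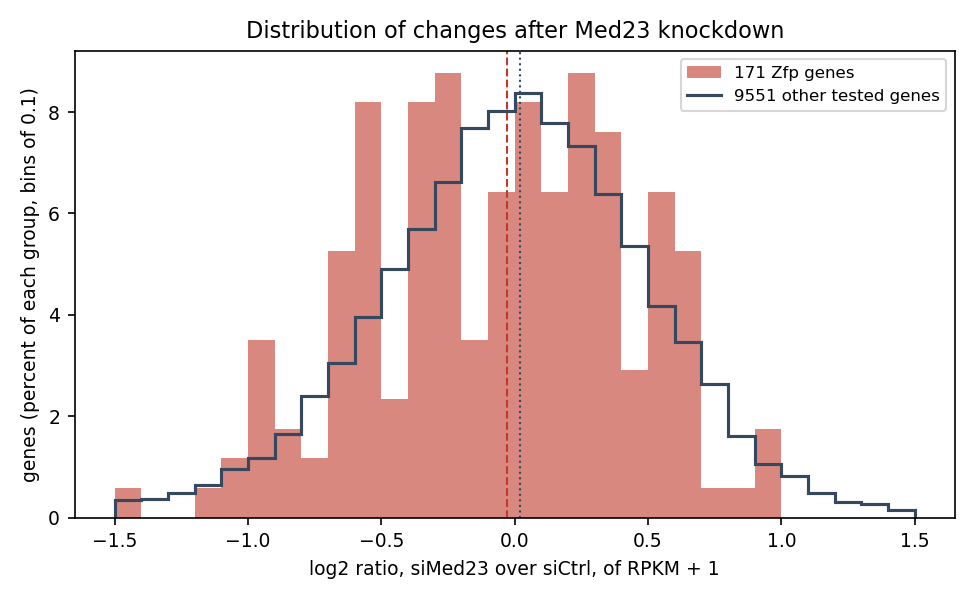
Distribution of the log2 ratio, siMed23 over siCtrl on RPKM + 1, in bins of 0.1, for the 171 Zfp genes (filled bars) and the 9551 other tested genes (line), each as a percent of its group, with dashed and dotted vertical lines at the medians of -0.03 and 0.02. The centres nearly coincide, no Zfp gene lies above 0.98 or below -1.41, and 172 other genes lie outside the plotted range.

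The filter itself bore on the extremes. Of the Zfp genes, 8 had under 1 RPKM in siCtrl and were kept through their siMed23 values: Zfp28, Zfp35, Zfp53, Zfp57, Zfp125, Zfp788, Zfp932 and Zfp945, of which 3 were called higher. Conversely, 3 were under 1 RPKM in both siMed23 libraries and were kept through the control, Zfp12, Zfp187 and Zfp874a, and all 3 of these were called lower. At the limit itself, just inside it, Zfp874a had 0.872 and 0.715 RPKM in siMed23 and 1.43 RPKM in siCtrl, Zfp53 had 1.13 and 1.10 RPKM in siMed23 and 0.956 RPKM in siCtrl, and Zfp942 had 1.13 and 0.776 RPKM in siMed23 and 1.33 RPKM in siCtrl. Just outside it, Zfp64 had 1.12 and 0.978 RPKM in siMed23 and 0.830 RPKM in siCtrl, Zfp672 had 1.04 and 1.09 RPKM in siMed23 and 0.786 RPKM in siCtrl, and Zfp790 had 0.900 and 0.785 RPKM in siMed23 and 1.22 RPKM in siCtrl. Zfp874a is the one of these 3 inside the limit that was called, and its call was lost after the length and GC correction (log2 ratio -0.29).

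Ranked by the smaller change of the pair of knockdown libraries, the largest rises were in Zfp511, Zfp277 and Zfp36. Zfp511 had 12.1 and 11.6 RPKM in siMed23 and 5.52 RPKM in siCtrl (log2 ratio 0.98 ± 0.10 SE, limma BH-adjusted p = 0.00163). Zfp277, which in mouse fibroblasts works with the Polycomb protein Bmi1 and whose human counterpart binds a protein of the small ribosomal subunit, had 9.25 and 8.76 RPKM in siMed23 and 4.09 RPKM in siCtrl (log2 ratio 0.97 ± 0.10 SE, limma BH-adjusted p = 0.00188). Both knockdown values were more than double the control for these genes, and the siMed23 libraries were close together. Zfp36, or tristetraprolin, had 22.5 and 23.9 RPKM in siMed23 and 11.9 RPKM in siCtrl (log2 ratio 0.91 ± 0.09 SE, limma BH-adjusted p = 0.00154). Zfp125 had 2.78 and 1.98 RPKM in siMed23 and 0.840 RPKM in siCtrl, the widest spread among these rises. In the annotation Zfp125 has no coding sequence and overlaps the exons of 3110053B16Rik on its own strand, and reads of that kind cannot be told apart here.

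A second tier of rises included several proteins with known roles. Zfp346, which binds double-stranded RNA, had 11.7 and 11.2 RPKM in siMed23 and 6.68 RPKM in siCtrl (log2 ratio 0.70). Zfp593, related to a yeast factor that travels with the large ribosomal subunit as it leaves the nucleus, had 3.19 and 3.06 RPKM in siMed23 and 1.57 RPKM in siCtrl (log2 ratio 0.69). Zfp410, an activator known above all for the Chd4 gene, had 12.6 and 13.1 RPKM in siMed23 and 7.64 RPKM in siCtrl (log2 ratio 0.68). The Chd4 mRNA moved the other way, with 57.7 and 60.8 RPKM in siMed23 and 80.4 RPKM in siCtrl (log2 ratio -0.44, limma BH-adjusted p = 0.00532). Zfp524, whose human counterpart binds telomeric DNA, had 9.16 and 11.1 RPKM in siMed23 and 5.58 RPKM in siCtrl (log2 ratio 0.75). The other 5 of the 12 largest rises were Zfp707 (log2 ratio 0.67), Zfp385c (0.62), Zfp945 (0.62), Zfp580 (0.61) and Zfp125 (0.87). After the correction for length and GC content 11 of the 12 rises were still called by limma, and Zfp580, with a GC-rich transcript of 66.1% GC, was not (log2 ratio 0.20, BH-adjusted p = 0.144).

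The largest fall was in Zfp260, known from rodent heart as a partner of a GATA factor in adrenergic signalling. It had 4.94 and 3.57 RPKM in siMed23 and 12.8 RPKM in siCtrl (log2 ratio -1.41 ± 0.17 SE, limma BH-adjusted p = 0.00283). Zfp146, a protein made of little else than zinc fingers, had 6.84 and 6.89 RPKM in siMed23 and 15.5 RPKM in siCtrl (log2 ratio -1.07 ± 0.10 SE, limma BH-adjusted p = 0.00121). Neither gene's siMed23 values came near the control, and both kept their falls after the length and GC correction, at -1.20 and -1.15. Zfp143, an activator of small nuclear RNA genes and of many mRNA promoters, had 7.19 and 6.61 RPKM in siMed23 and 13.9 RPKM in siCtrl (log2 ratio -0.91 ± 0.10 SE, limma BH-adjusted p = 0.00225). Zfp12 had 0.802 and 0.780 RPKM in siMed23 and 2.48 RPKM in siCtrl (log2 ratio -0.96 ± 0.11 SE, limma BH-adjusted p = 0.00246).

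Other falls of this size were spread over factors with different known functions. Zfp516, which activates the uncoupling protein gene in brown fat, had 2.70 and 3.49 RPKM in siMed23 and 7.55 RPKM in siCtrl (log2 ratio -1.07). Zfp148, a factor that binds GC-rich promoters, had 3.63 and 2.32 RPKM in siMed23 and 7.44 RPKM in siCtrl (log2 ratio -1.11). Its siMed23 libraries were further apart than those of Zfp516, with an SE of 0.21. Zfp609, a partner of Nipbl and the Integrator complex in mouse neural progenitors, had 3.61 and 3.93 RPKM in siMed23 and 7.29 RPKM in siCtrl (log2 ratio -0.80). Zfp322a, known from mouse embryonic stem cells as a pluripotency factor, had 0.931 and 1.08 RPKM in siMed23 and 2.68 RPKM in siCtrl (log2 ratio -0.88). The remaining 4 of the 12 largest falls were Zfp507 (log2 ratio -0.94), Zfp871 (-0.94), Zfp81 (-0.93) and Zfp251 (-0.82). All 12 were still called lower by limma after the correction for length and GC content, with log2 ratios between -1.20 for Zfp260 and -0.37 for Zfp871. That correction also acts on the spread between the siMed23 libraries. For Zfp143 the log2 ratio went from -0.91 to -0.84, while the limma BH-adjusted p went from 0.00225 to 6.99e-05.

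**Figure D2:**
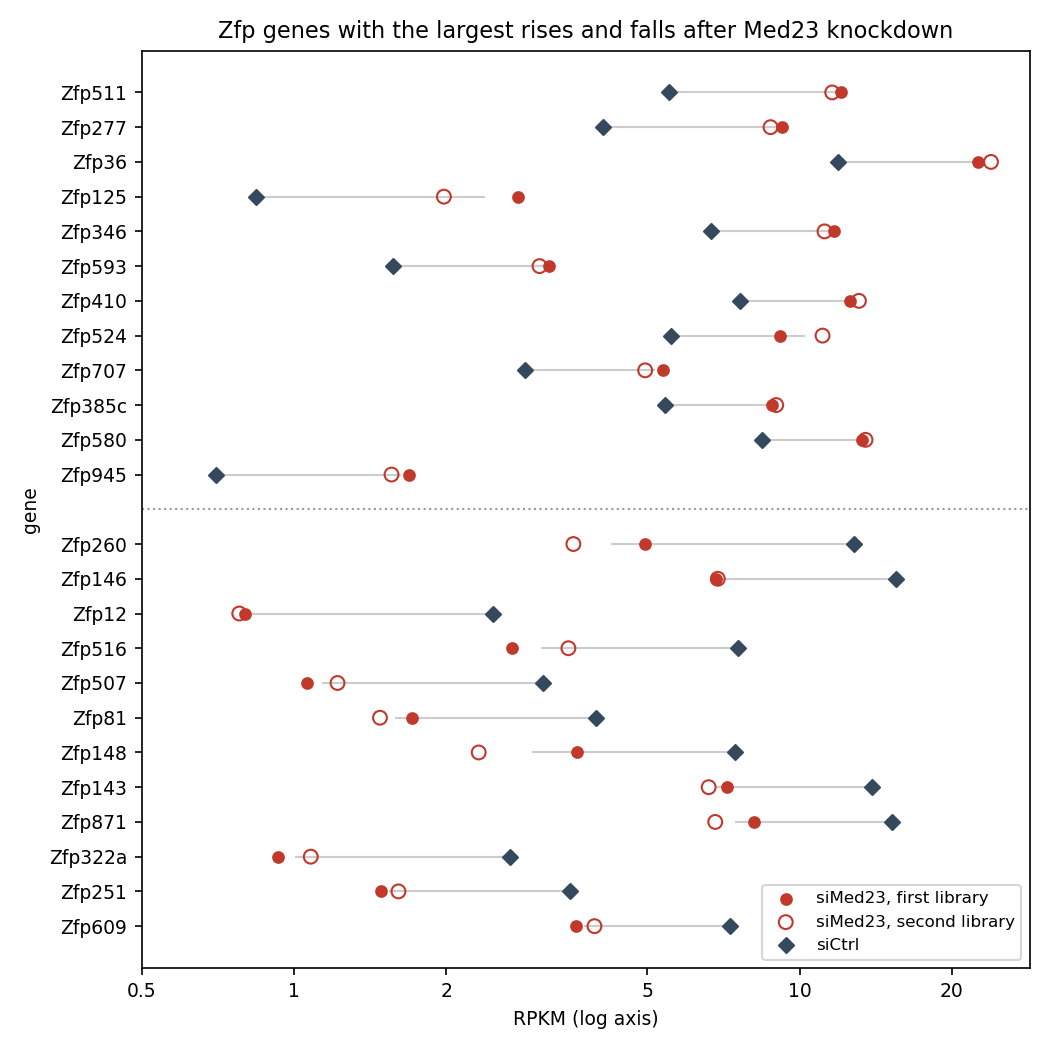
RPKM (log axis) of the 12 Zfp genes with the largest rises and the 12 with the largest falls in the first siMed23 library (filled circles), the second (open circles) and siCtrl (diamonds), with grey lines from the knockdown mean to the control. The siMed23 values of every gene shown lie on one side of the control, and the widest gaps on this axis are those of Zfp12, with 0.802 and 0.780 RPKM in siMed23 and 2.48 RPKM in siCtrl, and of Zfp260.

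The promoters of 3 of the largest rises and 3 of the largest falls are printed as examples, and the shares over all called Zfp genes follow them. Each runs from 250 bases before to 50 after the transcription start, is the first listed for the gene in RefSeq on GRCm38.p6, and is written along the gene's strand. Capitals mark the letters of 5 motifs searched on both strands: CCGGAAG for ETS factors, CACGTG for E-box factors, GGGCGG for the GC box, TGACGTCA for the cyclic AMP response element, and a motif for Zfp143, with any base allowed at 1 position, whose matches stand in capitals in Zfp260 and Zfp146. The last was chosen after the sequences of the fallen genes had been read, and it can share bases with a site for ETS factors. The rises come first, with Zfp511 at chr7:140036141-140036440 on the plus strand, Zfp277 at chr12:40445741-40446040 on the minus strand and Zfp36 at chr7:28379179-28379478 on the minus strand.
Zfp511: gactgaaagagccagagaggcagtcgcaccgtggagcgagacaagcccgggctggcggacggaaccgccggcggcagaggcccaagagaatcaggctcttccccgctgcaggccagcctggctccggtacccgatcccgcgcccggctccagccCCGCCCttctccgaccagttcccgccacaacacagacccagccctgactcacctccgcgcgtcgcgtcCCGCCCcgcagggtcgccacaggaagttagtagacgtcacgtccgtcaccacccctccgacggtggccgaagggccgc
Zfp277: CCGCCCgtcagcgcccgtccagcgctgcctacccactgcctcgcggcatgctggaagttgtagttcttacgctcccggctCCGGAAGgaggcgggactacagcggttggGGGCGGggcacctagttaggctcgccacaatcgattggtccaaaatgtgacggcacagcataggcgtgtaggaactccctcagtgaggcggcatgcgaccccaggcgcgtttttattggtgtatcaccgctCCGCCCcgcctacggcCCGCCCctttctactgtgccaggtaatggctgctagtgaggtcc
Zfp36: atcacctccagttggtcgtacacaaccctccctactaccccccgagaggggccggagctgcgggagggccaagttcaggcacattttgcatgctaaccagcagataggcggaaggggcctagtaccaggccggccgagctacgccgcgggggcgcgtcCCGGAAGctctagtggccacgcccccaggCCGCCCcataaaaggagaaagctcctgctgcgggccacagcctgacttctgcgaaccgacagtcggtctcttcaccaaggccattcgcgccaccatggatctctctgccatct
These promoters held 70.3%, 63.3% and 63.7% GC, and each had at least 1 GC box, with 4 in Zfp277. The falls are Zfp260 at chr7:30094826-30095125 on the plus strand, Zfp146 at chr7:30169692-30169991 on the minus strand and Zfp12 at chr5:143234913-143235212 on the plus strand.
Zfp260: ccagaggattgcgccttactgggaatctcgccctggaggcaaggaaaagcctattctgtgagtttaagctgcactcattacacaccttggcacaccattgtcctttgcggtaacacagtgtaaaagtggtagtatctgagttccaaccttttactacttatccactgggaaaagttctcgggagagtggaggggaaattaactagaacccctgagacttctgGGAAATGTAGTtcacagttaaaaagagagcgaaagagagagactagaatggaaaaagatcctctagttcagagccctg
Zfp146: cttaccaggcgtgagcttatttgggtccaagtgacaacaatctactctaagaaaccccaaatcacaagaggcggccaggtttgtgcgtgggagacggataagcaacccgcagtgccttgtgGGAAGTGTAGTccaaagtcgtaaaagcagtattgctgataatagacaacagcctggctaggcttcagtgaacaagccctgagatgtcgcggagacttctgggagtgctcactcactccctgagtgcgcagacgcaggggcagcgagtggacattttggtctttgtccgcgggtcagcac
Zfp12: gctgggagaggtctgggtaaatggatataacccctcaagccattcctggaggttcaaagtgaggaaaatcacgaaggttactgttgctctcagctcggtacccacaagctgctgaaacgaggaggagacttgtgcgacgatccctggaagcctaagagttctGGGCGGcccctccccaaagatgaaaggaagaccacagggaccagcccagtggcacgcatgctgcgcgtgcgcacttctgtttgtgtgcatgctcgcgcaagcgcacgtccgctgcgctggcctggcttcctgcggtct
Here GC content was 45.7% in Zfp260, 53.3% in Zfp146 and 58% in Zfp12. Zfp260 and Zfp146 each held 1 copy of the Zfp143 letters and none of the other 4 motifs, and Zfp12 held 1 GC box.

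A promoter was found for 136 of the 171 Zfp genes. The Zfp143 letters stood in 11 of these (8.09%), against 1.09% of the 27025 promoters in the table. By call, they stood in 5 of 33 promoters of Zfp genes called lower (15.2%), 2 of 28 called higher (7.14%) and 4 of 75 that did not pass (5.33%). The carriers called lower were Zfp260, Zfp146, Zfp60, Zfp874a and Zfp420, and those called higher were Zfp180 and Zfp692. The motif had been picked from reading such genes, Zfp260 and Zfp146 among them, and without these 2 it stood in 3 of 31 promoters of genes called lower (9.68%). With counts this small the shares are a description of these letters in these windows. Zfp promoters were also richer than the table in the ETS letters, at 21.3% against 9.12%, and in the GC box, at 55.9% against 35.9%, with a median GC content of 58% against 52.7%. The 27025 promoters were not limited to genes averaging 1 RPKM or more, as the Zfp genes were. The part of this in these differences, and in that of the Zfp143 letters, was not tested. By call, the GC box stood in 50% of promoters of Zfp genes called higher and 57.6% of those called lower, and the median promoter GC was 58.8% and 58%, so the contrast in GC between the promoters printed above did not extend to the called genes as a whole. The E-box stood in 6.62% of Zfp promoters and 7.24% of all, and the cyclic AMP response element in 4.41% and 1.88%.

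Zfp260, Zfp382 and Zfp146 lie next to each other on chromosome 7. Zfp382, the KRAB-type gene between the pair of strong falls, had 1.01 and 1.32 RPKM in siMed23 and 1.69 RPKM in siCtrl (log2 ratio -0.32, limma BH-adjusted p = 0.104), so it was not called. All 3 were thus lower in siMed23 on average, and only the outer pair passed. Of the 16 runs of adjacent Zfp genes, 2 held both a higher and a lower call. In the run of 6 on chromosome 6, Zfp956 (log2 ratio 0.56) and Zfp746 (0.38) were called higher, while Zfp398 (-0.28), Zfp282 (0.10), Zfp212 (0.07) and Zfp777 (0.02) did not pass. Zfp637 (0.35, called higher) adjoins Zfp239 (-0.58, called lower), and Zfp426 (0.51, called higher) adjoins Zfp266 (-0.55, called lower). Chromosome 7 carried the most Zfp genes, 38, with 8 called higher and 8 lower (21.1% each), beside 26.3% and 24.0% of all tested genes. These neighbours were picked after their values had been seen.

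Of the 5 most abundant Zfp genes, Zfp36l1, Zfp622 and Zfp36 were called higher and Zfp207 and Zfp330 did not pass. Among other tested genes averaging over 6.05 RPKM, 31.3% were called higher and 25.5% lower, against 26.3% and 24.0% of all tested genes. Zfp36l1, a CCCH protein of mRNA decay, was the most abundant Zfp gene, with 54.0 and 56.9 RPKM in siMed23 and 37.6 RPKM in siCtrl (log2 ratio 0.55 ± 0.07 SE, limma BH-adjusted p = 0.00333). Zfp622, the counterpart of a yeast factor for late maturation of the large ribosomal subunit, had 22.9 and 24.4 RPKM in siMed23 and 15.7 RPKM in siCtrl (log2 ratio 0.56 ± 0.09 SE, limma BH-adjusted p = 0.00529). Both were higher in each knockdown library than in the control. Zfp207, a kinetochore and splicing protein that binds Bub3, had 37.7 and 33.6 RPKM in siMed23 and 29.1 RPKM in siCtrl (log2 ratio 0.28, limma BH-adjusted p = 0.0558), and nucleolar Zfp330 had 20.1 and 18.3 RPKM in siMed23 and 15.9 RPKM in siCtrl (log2 ratio 0.26, limma BH-adjusted p = 0.0702), so neither passed. By level, the median Zfp gene averaged 3.21 RPKM over the 3 libraries against 7.11 RPKM for all tested genes, 106 averaged under 5 RPKM, and 17 averaged 10 RPKM or more.

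Of the 3 CCCH genes, Zfp36 and Zfp36l1 were called higher and Zfp36l2 was not, with 3.37 and 3.68 RPKM in siMed23 and 3.51 RPKM in siCtrl (log2 ratio 0.00, limma BH-adjusted p = 0.986). The control value of Zfp36l2 lay between those of the knockdown libraries, and whether its change differs from those of its relatives was not tested. Of 24 tested entries for 23 listed genes of deadenylation, decapping and decay, 5 were called higher (20.8%), 7 lower (29.2%) and 12 did not pass, with a median log2 ratio of -0.05, near the 26.3% and 24.0% of all tested genes. Ddx6, the decapping helicase, had 4.90 and 5.48 RPKM in siMed23 and 18.3 RPKM in siCtrl (log2 ratio -1.64, limma BH-adjusted p = 0.000572). Cnot6, a catalytic subunit of the Ccr4-Not deadenylase, had 15.1 and 14.0 RPKM in siMed23 and 37.5 RPKM in siCtrl (log2 ratio -1.31, limma BH-adjusted p = 0.000601). Dcp1a, a decapping activator, had 1.55 and 1.80 RPKM in siMed23 and 4.17 RPKM in siCtrl (log2 ratio -0.95). These genes were named for the size of their changes among the 24 entries. Going the other way, Btg1 (log2 ratio 0.36), Pabpc1 (0.41), Cnot3 (0.42) and Btg2 (0.54) were called higher. Tob2, which links deadenylase and target, stood in the table under 2 gene IDs that went different ways: one (ENSMUSG00000078960) had 19.4 and 17.2 RPKM in siMed23 and 4.31 RPKM in siCtrl (log2 ratio 1.86), the other (ENSMUSG00000048546) had 5.74 and 5.68 RPKM in siMed23 and 6.89 RPKM in siCtrl (log2 ratio -0.23, not past).

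Of the 11 tested Zfp genes listed for RNA and ribosome functions, 4 were called higher (36.4%), 2 lower (18.2%) and 5 did not pass, with a median of 0.28, beside 26.3% higher and 24.0% lower among all tested genes. Besides Zfp277, Zfp346 and Zfp622, the fourth rise was Zfp598, the ubiquitin ligase that senses collided ribosomes, with 16.5 and 17.1 RPKM in siMed23 and 10.8 RPKM in siCtrl (log2 ratio 0.59, limma BH-adjusted p = 0.00493). The falls were Zfp106, an RNA-binding protein needed by motor neurons in mice, with 12.3 and 12.7 RPKM in siMed23 and 21.5 RPKM in siCtrl (log2 ratio -0.74, limma BH-adjusted p = 0.00253), and Zfp830, a splicing-associated protein, with 1.58 and 1.57 RPKM in siMed23 and 2.85 RPKM in siCtrl (log2 ratio -0.58). The siMed23 libraries nearly coincided for both. Not past were Zfp207, Zfp259 (log2 ratio 0.31), Zfp326 (0.25), Zfp385a (0.17) and Zfp706 (-0.01). Of 4 genes listed for ubiquitin or SUMO ligase functions, Zfp598 and Zfp746, a substrate of Parkin, were called higher, with Zfp746 at 6.74 and 6.79 RPKM in siMed23 and 4.99 RPKM in siCtrl, while Zfp451 (0.24) and Zfp91 (-0.21) did not pass. After the length and GC correction Zfp259 (0.33) and Zfp451 (0.39) passed.

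The 8 tested factors that bind GC-rich or other promoter elements had 3 called higher, 2 lower and 3 not past, close to the background of 26.3% higher and 24.0% lower. Zfp219 had 9.47 and 10.4 RPKM in siMed23 and 6.99 RPKM in siCtrl (log2 ratio 0.45, limma BH-adjusted p = 0.0191), and Zfp692 had 7.73 and 8.15 RPKM in siMed23 and 5.81 RPKM in siCtrl (log2 ratio 0.39, limma BH-adjusted p = 0.0266). The third rise was Zfp410, and the falls were Zfp143 and Zfp148. Zfp281, a pluripotency-linked relative of Zfp148, had 7.33 and 5.04 RPKM in siMed23 and 9.42 RPKM in siCtrl (log2 ratio -0.55 ± 0.20 SE, limma BH-adjusted p = 0.0675) and did not pass. The call of Zfp692 was lost after the length and GC correction (0.22). Zfp263 (0.29) and Zfp384 (0.22) did not pass, and Zfp263 did after that correction (0.35).

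Of 9 tested Zfp genes linked to co-repressor or other chromatin complexes, limma called 0 higher and 3 lower, and 6 did not pass. Among all tested genes 26.3% were called higher and 24.0% lower. Without adjustment, too, 0 of the 9 were higher and 3 lower at p under 0.05, with no background share given at that limit. Their median transcript length was 6708 bases, against 2916 bases for all tested genes, and the part of length in these calls was not tested. The falls were Zfp516, Zfp217, a partner of the CoREST and CtBP co-repressors, with 2.37 and 2.92 RPKM in siMed23 and 4.25 RPKM in siCtrl (log2 ratio -0.53, limma BH-adjusted p = 0.0249), and Zfp335, a subunit of a histone methyltransferase complex, with 5.42 and 6.04 RPKM in siMed23 and 8.12 RPKM in siCtrl (log2 ratio -0.44, limma BH-adjusted p = 0.0247). Zfp592 (0.19), Zfp532 (0.17) and Zfp687 (0.11), which form one complex, Zfp639 (-0.06), Zfp652 (-0.09) and Zfp462 (-0.28) did not pass. Zfp592 (0.47) and Zfp532 (0.43) passed after the length and GC correction.

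Of the KRAB proteins known for imprinting or retroelements, Zfp445, which with Zfp57 keeps methylation at imprinted genes, had 11.1 and 7.91 RPKM in siMed23 and 15.8 RPKM in siCtrl (log2 ratio -0.70, limma BH-adjusted p = 0.0289) and was called lower, a call lost when all genes were tested with no filter on low values. Zfp932, a repressor of endogenous retroviruses, had 1.81 and 1.21 RPKM in siMed23 and 0.603 RPKM in siCtrl (log2 ratio 0.64, limma BH-adjusted p = 0.0290) and was called higher. It belongs to a group of closely similar genes among which reads may have been divided, so its level is uncertain. Zfp57 had 1.27 and 1.38 RPKM in siMed23 and 0.873 RPKM in siCtrl (log2 ratio 0.31, limma BH-adjusted p = 0.0712), and Zfp809, which silences retroviruses in mouse embryonic cells, had 2.11 and 1.69 RPKM in siMed23 and 2.43 RPKM in siCtrl (log2 ratio -0.25, limma BH-adjusted p = 0.182). Neither passed, and Zfp809 did after the length and GC correction (-0.41).

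The 9 tested genes listed for development and cell fate had 2 called higher (22.2%), 4 lower (44.4%) and 3 not past, beside 26.3% and 24.0% of all tested genes. Zfp703, amplified in human breast cancers, had 5.89 and 5.67 RPKM in siMed23 and 3.96 RPKM in siCtrl (log2 ratio 0.45, limma BH-adjusted p = 0.0190), and its relative Zfp704 had 1.18 and 1.25 RPKM in siMed23 and 2.59 RPKM in siCtrl (log2 ratio -0.70, limma BH-adjusted p = 0.00617). The pair thus moved in opposite directions, but the call of Zfp704, whose transcript is 13834 bases long, was lost after the correction for length and GC (-0.19). Zfp467, which promotes fat over bone formation in mouse, was the other rise, with 2.64 and 2.76 RPKM in siMed23 and 1.79 RPKM in siCtrl (log2 ratio 0.41). Zfp292 had 2.25 and 1.17 RPKM in siMed23 and 4.18 RPKM in siCtrl (log2 ratio -0.96), Zfp365 had 2.34 and 2.74 RPKM in siMed23 and 4.41 RPKM in siCtrl (-0.62), and Zfp318, needed for IgD on mouse B cells, had 1.44 and 1.32 RPKM in siMed23 and 2.45 RPKM in siCtrl (-0.54). The difference for Zfp318, a transcript of 13060 bases, was 0.01 after the correction. Zfp369 (0.04), Zfp395 (-0.06) and Zfp110 (-0.24) did not pass. The calls of Zfp467 and Zfp746 were lost as well when all genes were tested with no filter on low values.

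Outside the 12 largest rises, the 12 largest falls, the most abundant genes and the role lists, 13 Zfp genes were called higher by limma, with log2 ratios between 0.31 for Zfp414 and 0.63 for Zfp931, and 21 were called lower, between -0.82 for Zfp397 and -0.34 for Zfp740. The most abundant of these rises was Zfp637, with 16.9 and 19.1 RPKM in siMed23 and 13.9 RPKM in siCtrl. Zfp740 was the most abundant of these falls, with 15.5 and 16 RPKM in siMed23 and 20.3 RPKM in siCtrl. Both changes were small beside their levels. Zfp238, also named Zbtb18 and known as a repressor in developing cortical neurons, had 4.63 and 5.52 RPKM in siMed23 and 8.34 RPKM in siCtrl (log2 ratio -0.62, limma BH-adjusted p = 0.0129). Zfp828, also named Champ1, a protein that acts in attaching chromosomes to the spindle, had 2.84 and 3.03 RPKM in siMed23 and 5.33 RPKM in siCtrl (log2 ratio -0.69, limma BH-adjusted p = 0.00615). In both genes the control lay well above the siMed23 libraries. These examples were chosen after their values had been seen.

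Proteins were sorted by motifs counted in the translated coding sequence of each gene's longest coding transcript. C2H2 motifs were found in 159 of 169 proteins, with a median of 9 and the most, 36, in Zfp142. A KRAB-type stretch was found in 53. Of these 4 were called higher (7.55%) and 10 lower (18.9%), and 39 did not pass, with a median log2 ratio of -0.15, beside 26.3% higher, 24.0% lower and a median of 0.01 among all tested genes. Of the 107 C2H2 proteins without one, 25 were called higher (23.4%) and 31 lower (29%), with a median of -0.04. The KRAB-type genes were lower in level, with a median of 2.07 RPKM against 4.46 RPKM, and in transcript GC, with 43.6% against 50.2%. After the length and GC correction the counts were 8 higher and 11 lower for KRAB-type and 29 and 22 for C2H2 proteins without the stretch, with medians of 0.01 and 0.04. Zfp445 and some other proteins known to carry KRAB did not match the pattern, so the class without one is not free of them.

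By number of fingers, the 36 proteins with 1 to 4 had 14 genes called higher and 10 lower (median 0.17), the 59 with 5 to 9 had 9 and 12 (median -0.05), and the 64 with 10 or more had 6 and 19 (median -0.22), against a background of 26.3% higher and 24.0% lower. Proteins with many fingers also came from longer, more AT-rich transcripts at lower levels, with medians of 3934 bases, 43.8% GC and 1.83 RPKM against 2802 bases, 51.4% GC and 6.53 RPKM for 1 to 4 fingers. The part of length, GC and level in the pattern by fingers was not tested.

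The change of a Zfp gene went with its transcript length. Of the 57 shortest transcripts, up to 2829 bases, 24 were called higher (42.1%) and 6 lower (10.5%). Of the 57 longest, over 4221 bases, 1 was called higher (1.75%), Zfp945, and 25 lower (43.9%), with medians of 0.31 among the shortest and -0.34 among the longest. The middle 56 had 9 higher and 12 lower. Other tested genes in the same ranges showed the same order, with 38.4% higher and 15.2% lower among the short and 10.4% higher and 37.9% lower among the long. GC content went the same way: the 57 most GC-rich Zfp transcripts, over 52.6%, had 23 called higher and 6 lower, the middle 56 had 5 and 18, and the 57 poorest, up to 43.6%, had 6 and 19. Among other genes 33% were called higher and 18.4% lower in the GC-rich range, and 16.5% higher and 30.1% lower in the GC-poor one. In the middle range 23.9% of other genes were called higher and 26.9% lower, against 8.93% and 32.1% of the Zfp genes. The difference in the middle range was not tested. Across the 170 Zfp genes with annotation, Spearman's rho of the log2 ratio was -0.51 with length and 0.36 with GC, and -0.38 and 0.20 across 9444 other genes. These are descriptions across genes of the same 3 libraries, which are not independent replicates, and length and GC were themselves related (rho -0.26). The mean RPKM and the length of the 3′ UTR were related to the change as well (rho 0.23 and -0.46).

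**Figure D3:**
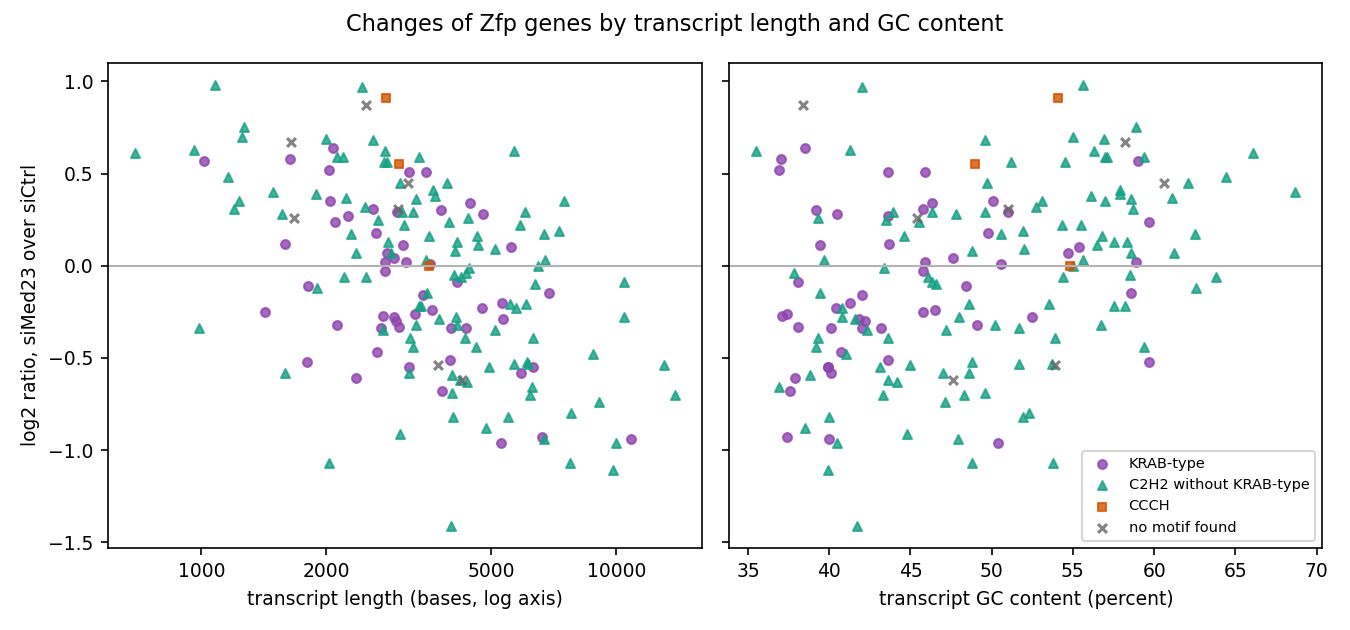
Log2 ratio, siMed23 over siCtrl, of each Zfp gene against transcript length in bases (left, log axis) and transcript GC content in percent (right), with symbols for KRAB-type, other C2H2, CCCH and genes with no motif found. Short and GC-rich transcripts lie mostly above 0 and long ones mostly below, with rho of -0.51 for length and 0.36 for GC.

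**Figure D4:**
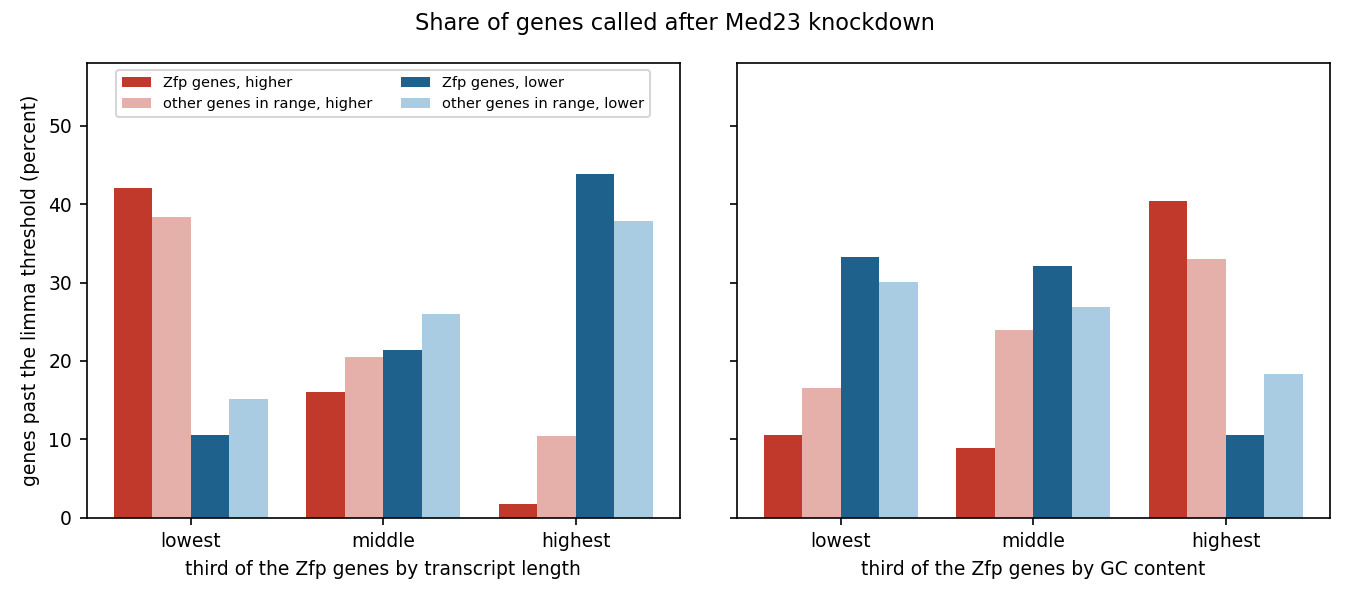
Percent of genes called higher (red) and lower (blue) by limma in 3 groups of nearly equal size of the Zfp genes by transcript length (left) and GC content (right), in dark bars for Zfp genes and light bars for other tested genes within the same limits. The share higher is 42.1% of Zfp genes and 38.4% of other genes among the shortest and 1.75% and 10.4% among the longest.

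GC content also separated the siMed23 libraries from each other. The second minus the first library on log2(RPKM + 1) had a rho of 0.62 with GC content across the Zfp genes and 0.32 across the other genes, and 0.02 with transcript length across the Zfp genes. The 3 Zfp genes whose knockdown libraries differed most were all poor in GC. Zfp386 had 13.1 and 7.21 RPKM in siMed23 and 7.88 RPKM in siCtrl, at 40.5% GC. Zfp280d had 8.76 and 4.68 RPKM in siMed23 and 5.23 RPKM in siCtrl, at 39.3% GC. Zfp800 had 10.4 and 5.70 RPKM in siMed23 and 10.5 RPKM in siCtrl, also at 39.3% GC. In each of them the second siMed23 library was well below the first, and none was called by limma (BH-adjusted p = 0.484, 0.520 and 0.319). Zfp386 and Zfp280d were called higher after the length and GC correction, at 0.56 and 0.53. The median size of the difference between the siMed23 libraries was 0.10 for Zfp genes and 0.09 for all tested genes.

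**Figure D5:**
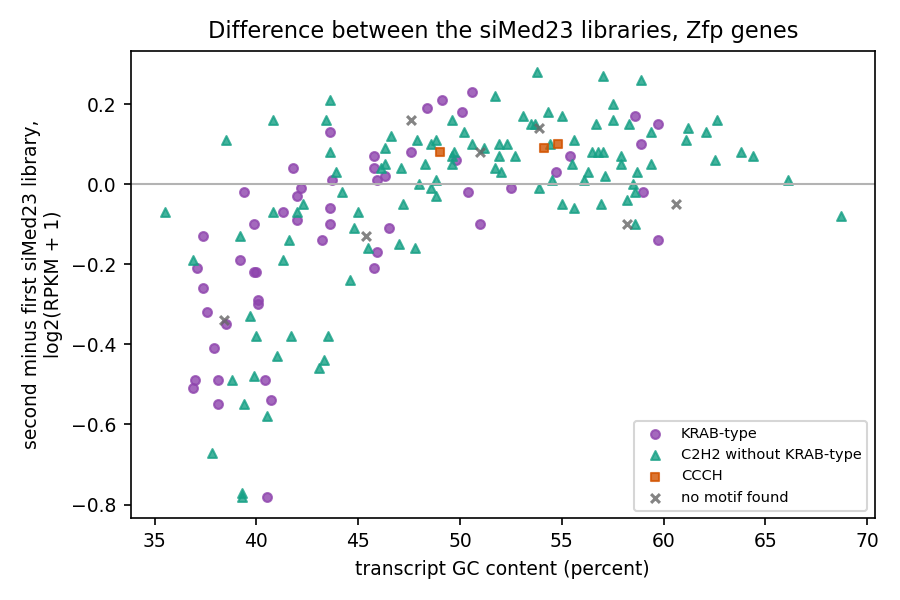
Second minus first siMed23 library on log2(RPKM + 1) for each Zfp gene against its transcript GC content in percent, with symbols for protein class. Genes under about 45% GC spread down to -0.78, the others stay close to 0, and rho is 0.62.

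In 92 of the 147 Zfp genes under a mean of 1 RPKM (62.6%) both siMed23 libraries were below siCtrl, and in 28 (19%) both were above. Among 2983 other genes under that mean the shares were 42.8% and 37.4%. The median level of the 147 Zfp genes was 0.354 and 0.317 RPKM in siMed23 and 0.475 RPKM in siCtrl. They held 78 KRAB-type proteins and had a median transcript GC of 44.2%, against 52% for the other genes under the mean. They were not tested, and the part of GC content in the difference was not tested.

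Beside the Zfp genes, the median log2 ratio of related and unrelated gene families by symbol was -0.18 for 26 Zbtb genes, 0.11 for 10 Zscan and Zkscan genes, -0.01 for 9 Klf genes and -0.13 for 14 Zc3h genes, and those of Zbtb, Klf and Zc3h turned to 0.08, 0.21 and 0.14 after the length and GC correction. It was 0.21 for 17 Zdhhc, 0.25 for 29 Rbm, 0.21 for 72 Ccdc and 0.10 for 126 Tmem genes. The -0.03 of the Zfp genes lay between the lowest and the highest of these. Only 11 KRAB-type C2H2 genes without a Zfp symbol were tested, and 1 was called higher and 1 lower.

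Of 20 tested genes of the co-repressor machinery that KRAB proteins work through, 5 were called higher (25%), 6 lower (30%) and 9 did not pass, with a median of -0.03, near the 26.3% and 24.0% of all tested genes. Trim28, which binds the KRAB domain, had 47.2 and 47.3 RPKM in siMed23 and 35.4 RPKM in siCtrl (log2 ratio 0.41, limma BH-adjusted p = 0.00673). The siMed23 libraries agreed closely and both exceeded the control. Setdb1, the histone methyltransferase recruited by Trim28, had 1.94 and 2.09 RPKM in siMed23 and 3.22 RPKM in siCtrl (log2 ratio -0.49, limma BH-adjusted p = 0.0187). Dnmt1, the maintenance DNA methyltransferase, had 16.8 and 17.1 RPKM in siMed23 and 27.5 RPKM in siCtrl (log2 ratio -0.67, limma BH-adjusted p = 0.00273). Morc2a had 0.985 and 1.11 RPKM in siMed23 and 2.32 RPKM in siCtrl (log2 ratio -0.70). Trim28 was thus higher after knockdown while the enzymes named here were lower. Atf7ip, a Setdb1 partner, was called lower on its more abundant gene ID (log2 ratio -0.54) and lost that call after the correction for length and GC (-0.17).

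Some of these levels are less certain than their spread shows. Zfp genes include many close paralogs whose reads the counting could have divided. The strand setting was not given in the sources used here, and 56 of the 171 Zfp genes overlap exons of another gene in the annotation, 48 on the opposite strand and 12 on the same strand. Among the 12 largest rises, Zfp511 overlaps Tubgcp2, Zfp36 overlaps Gm44710, Zfp346 overlaps Gm17617 and Zfp593 overlaps E130218I03Rik, each on the opposite strand. Zfp410 overlaps Gm47484 and Zfp385c overlaps Nkiras2, also on the opposite strand. Zfp524 overlaps Fiz1 on the opposite strand and Gm44973 on its own, and Zfp125 overlaps 3110053B16Rik on its own. Among the 12 largest falls, Zfp143, Zfp322a and Zfp507 overlap other genes, all on the opposite strand.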

How the data were processed

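RNA sequencing data of 3 B16F10 libraries were used, 2 of siMed23 and 1 of siCtrl. The authors deposited RPKM values. Named without role or order, per the submitters' processing notes, were mm9, Cufflinks, TopHat and CASAVA 1.4. Sorted columns were equal in 95.3% of positions (relative tolerance 1e-09), so the RPKM had been quantile normalised, and depth is unknown. There were 0 unused sample columns. The knockdown columns' headers were merged, so they are called the first and the second siMed23 library by position, without their label numbers.

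Values were analysed as log2(RPKM + 1), which understates changes of low genes. Genes averaging 1 RPKM or more were tested with limma 3.58.1 in R 4.3.3 (lmFit, eBayes with intensity trend), with Benjamini-Hochberg adjustment over 9722 genes, a threshold of 0.05, 1 residual and 4.37 prior degrees of freedom. The step was tested on simulated data. GENCODE M21 gave lengths, GC content, overlaps and, in place of the RefSeq proteins planned, protein sequences, by gene ID. That annotation is of a later build than mm9. Exon overlaps and chromosomes rest on its own positions, which were not matched to those of mm9. Promoters came from RefSeq, matched by symbol or synonym. Tables were handled with Python 3.11.15 and pandas 2.3.3. Members and lists were chosen with earlier results of these data known.

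Named genes were Med23, the 12 largest rises and 12 largest falls by the smaller change of the knockdown libraries, members of the role lists, the 3 nearest each side of 1 RPKM, the 3 with the most different knockdown libraries, the 5 most abundant, and up to 4 of each partner list. Other settings tried were no filter or 5 RPKM, a pseudocount of 0.1, median centring, no trend, a control SD of 3 times, a loess correction for length and GC content, a 2-fold limit, and each knockdown library left out.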

Additional observations from a re-analysis of the deposited data

How the results depend on the processing

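With only 1 control and 2 knockdown libraries, calls rest on the assumed control spread: with 3 times the SD limma called 0 Zfp genes higher and 0 lower (0 of either KRAB-type or other C2H2 genes, 0 and 0 of the KRAB co-repressor partners, and 1 and 0 of the CCCH partners, where 1 is higher). No paired analysis was possible because the groups share fewer than 2 replicate numbers and the columns carry none. With 1 knockdown library left there is no residual degree of freedom, so calls had no value. Depth is unknown, so no counting limit can be given. The cause of the changes below was not tested, except that a minimum of 5 RPKM leaves fewer genes.

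With a minimum mean of 5 RPKM, 65 Zfp genes were left, 21 called higher and 12 lower. Among all 5979 genes tested at that minimum, 30.6% were called higher and 25% lower, with a median log2 ratio of 0.03. KRAB-type calls were then 0 higher and 3 lower, other C2H2 calls 9 lower, and 5 genes were 1.5-fold lower. Medians were 0.12 for Zfp, 0.14 for C2H2 without KRAB, 0.08 for Zbtb, 0.05 for Klf, 0.15 for Zc3h, 0.29 for Zdhhc, 0.35 for Rbm, 0.43 for Ccdc and 0.14 for Tmem.

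After the loess correction KRAB-type genes called higher were 8 and KRAB co-repressor partners called higher 3, and 6 Zfp genes were 1.5-fold higher and 9 lower. Medians were 0.03 for Zfp, 0.01 for KRAB-type, 0.04 for other C2H2, 0.08 for Zbtb, 0.21 for Klf, 0.14 for Zc3h, 0.16 for Zdhhc, 0.24 for Ccdc and 0.01 for Tmem. The sign turned for Zfp385a (-0.00), Zfp706 (0.20), Zfp395 (0.01), Zfp652 (0.37), Zfp91 (0.00), Zfp462 (0.16) and Zfp318 (0.01). Of these, Zfp318 alone had been called.

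With a pseudocount of 0.1, 20 Zfp genes were 1.5-fold higher and 32 lower, and medians were -0.04 for Zfp, -0.23 for KRAB-type, -0.07 for other C2H2, 0.28 for Rbm, 0.29 for Ccdc and 0.12 for Tmem. A limit of 2-fold left 0 higher and 2 lower. On RPKM with no pseudocount, a scale chosen after seeing the data, 22 were 1.5-fold higher and 32 lower, and 5 and 11 were past 2-fold. Centring all genes at 0 gave -0.04 for Zfp, -0.05 for other C2H2 and 0.20 for Ccdc, and turned Zfp36l2, which was not called, to -0.01.

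Leaving out a knockdown library gave 17 to 19 Zfp genes 1.5-fold higher and 24 to 32 lower. Medians ran from -0.03 to -0.02 for Zfp, -0.04 to -0.02 for other C2H2, -0.19 to -0.10 for Zbtb, 0.13 to 0.20 for Zdhhc, 0.21 to 0.26 for Rbm and 0.22 to 0.24 for Ccdc. The call counts of Zfp genes stayed within 1.5 times of 34 and 43 with a pseudocount of 0.1 (34 and 40), no filter (29 and 37), centring (33 and 44), no trend (37 and 44) and the loess correction (43 and 35), though under loess 58 of the 77 called genes were called again.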
